A study of Mus musculus with 42 samples.

Results

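The genes described here are 9 phosphodiesterases other than the drug's target: Pde2a, Pde4a, Pde4b, Pde4d, Pde7a, Pde7b, Pde8a, Pde8b and Pde9a. They were taken by name from the annotation of the expression table and are 9 of its 18193 measured genes, with 27 of 34945 probe sets that name a single gene. The mice were C57BL6, either wild type (WT) or labelled PDE10A knockout (KO), and each received vehicle or a PDE10A inhibitor. RNA came from microdissected, snap-frozen striatum (WT: 5 vehicle and 6 inhibitor arrays, KO: 5 vehicle and 4 inhibitor arrays) and hippocampus (6, 6, 5 and 5 arrays in that order), 42 arrays in all. No source used here names the compound, its dose, the time of dissection or the deleted exons, or says that every array had an animal of its own. The p-values therefore measure the spread between these arrays, which may be technical, and the number of arrays limits the precision.

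Phosphodiesterases end cyclic nucleotide signals by hydrolysing cAMP, cGMP or both. PDE10A hydrolyses both and is abundant in the projection neurons of the striatum, where cAMP rises with dopamine and adenosine receptor activity and cGMP with nitric oxide. Other family members share those substrates. Pde4a, Pde4b and Pde4d encode the rolipram-sensitive cAMP enzymes. Pde7a and Pde7b encode high-affinity cAMP enzymes that rolipram does not block, and Pde8a and Pde8b encode high-affinity cAMP enzymes that the general inhibitor IBMX does not block. Pde2a encodes an enzyme for both nucleotides that cGMP stimulates, and Pde9a encodes a high-affinity enzyme for cGMP. The comparisons ask whether the RNA of any of these genes differs where PDE10A is inhibited or labelled as deleted, which a compensation by related enzymes could involve at the transcript level.

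All values are log2 signals after RMA, which corrects the background, equalises distributions between arrays and combines the probes of each set. A difference of 1 is 1 doubling. For a gene with several probe sets, the brightest on average (all 42 arrays) stands for it. A gene passed where limma's adjusted p (Benjamini-Hochberg over 18193 genes) lay under 0.05. Levels of different genes are not set against each other, since probe sets differ in their response.

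The labelled regions were borne out by markers of striatal projection neurons (8 of 10 listed genes measured): their mean lay between 11.4 and 12.4 on striatal arrays and between 7.87 and 8.30 on hippocampal ones. Pde10a signal was not lower in arrays labelled KO. In striatum it averaged 12.32 ± 0.26 (SD, n = 5) in WT vehicle and 12.35 ± 0.22 (n = 5) in KO vehicle arrays, so it gives no check of the deletion and KO below means the label. A score from 15 genes of chromosome 17, which carries Pde10a, used those that separated the genotype labels best in the opposite region (Pde9a and Pde10a left out). It was scaled so that 0 is the median of WT vehicle and 1 the median of KO inhibitor arrays. By it, 8 of the 42 arrays fell across 0.5 from the rest of their labelled genotype. They were striatum KO vehicle 25, striatum WT inhibitor 13, 14 and 15, hippocampus KO vehicle 25 and 26, and hippocampus WT inhibitor 12 and 14. The groups formed by this score are drawn from the data and not from the labels. Calls of members that changed without these arrays are given both ways.

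**Figure D1:**
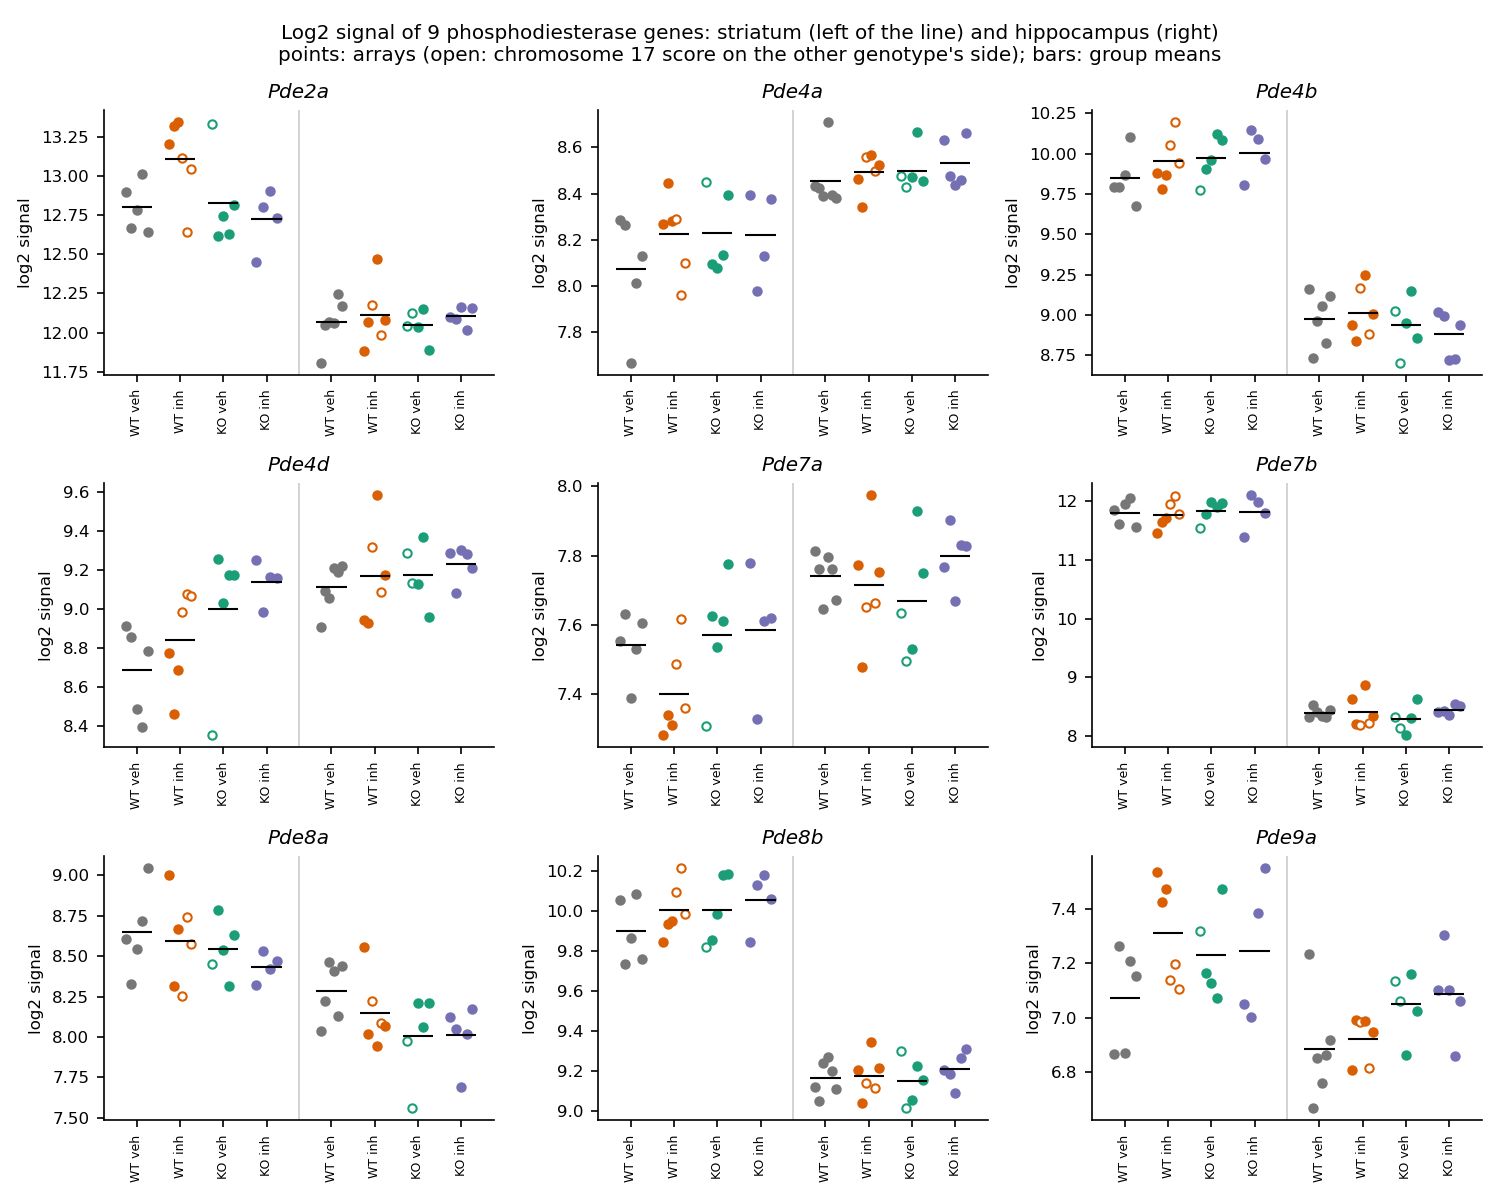
Log2 signal (vertical axes) of the 9 genes on every array, by group (horizontal axes: veh, vehicle; inh, inhibitor), with striatum left and hippocampus right of the grey line in each panel. Points are arrays, open ones those with a chromosome 17 score on the other genotype's side, and bars are group means. Pde7b, Pde4b and Pde8b separate the regions completely, while the 4 groups within a region overlap in every panel.

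The members differed by brain region and not, past the threshold, by treatment or genotype label. In WT vehicle mice 7 of the 9 members differed between striatum and hippocampus (limma, 5 against 6 arrays), where 33.9% of all genes did. Of these, 5 were higher in striatum, against 15.9% of all genes, and 2 were lower, against 17.9%. The median difference of the members was 0.36, beside 0.03 over all genes. The arrays of both regions did not overlap for 6 members, Pde2a, Pde4a, Pde4b, Pde7a, Pde7b and Pde8b, against 21.2% of all genes. These are whole-tissue RNAs, in which fewer cells of a type and less RNA per cell cannot be told apart.

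Pde7b showed the widest gap among the members. Its log2 signal in WT vehicle striatum was 11.84, 11.61, 11.94, 12.05 and 11.55, and in WT vehicle hippocampus 8.32, 8.52, 8.41, 8.35, 8.32 and 8.44. Over all groups it lay between 11.38 and 12.10 on the 20 striatal arrays and between 8.02 and 8.87 on the 22 hippocampal arrays, with no overlap. The difference was 3.40 ± 0.12 (SE, adjusted p = 1.39e-23) in WT mice on vehicle and 3.35 ± 0.12 on inhibitor, and 3.54 ± 0.13 and 3.36 ± 0.14 in KO mice on vehicle and inhibitor. Its other probe sets gave 2.44 ± 0.28 and 2.85 ± 0.20 in WT vehicle.

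Pde4b and Pde8b also lay higher on every striatal than on every hippocampal array, a pattern that 3 of the 9 members and 3.13% of all genes showed. Pde4b lay at 9.79, 9.79, 9.87, 10.11 and 9.68 in WT vehicle striatum and at 9.16, 8.73, 8.96, 9.06, 8.82 and 9.11 in WT vehicle hippocampus. Its difference was 0.87 ± 0.09 (adjusted p = 7.91e-10), then 0.94 ± 0.09 in WT inhibitor arrays, and 1.03 ± 0.10 and 1.12 ± 0.10 in KO mice on vehicle and inhibitor. In each of the 4 groups the lowest striatal array stood above the highest hippocampal one. Of the 6 Pde4b probe sets, 4 were higher in WT vehicle striatum, by 0.28 to 0.98, and the other 2, at 0.07 ± 0.08 and -0.08 ± 0.07, did not pass. Pde8b lay at 10.06, 9.74, 9.87, 10.09 and 9.76 in WT vehicle striatum and at 9.12, 9.05, 9.24, 9.27, 9.20 and 9.11 in WT vehicle hippocampus. Its difference was 0.73 ± 0.08 (adjusted p = 5.94e-10), and between 0.83 and 0.86 in the other groups.

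Promoters of these 3 genes are shown because they share the complete separation of the regions. Each sequence holds the 250 bases before the most upstream start that RefSeq lists for the gene (build GRCm38.p6), 5′ to 3′ on the gene's strand: Pde7b at chr10:20548329-20548578 (minus), Pde4b at chr4:102421305-102421554 (plus) and Pde8b at chr13:95250337-95250586 (minus). Capitals mark the core of the cAMP response element, TGACG on either strand, which can also lie within the full element TGACGTCA.
Pde7b: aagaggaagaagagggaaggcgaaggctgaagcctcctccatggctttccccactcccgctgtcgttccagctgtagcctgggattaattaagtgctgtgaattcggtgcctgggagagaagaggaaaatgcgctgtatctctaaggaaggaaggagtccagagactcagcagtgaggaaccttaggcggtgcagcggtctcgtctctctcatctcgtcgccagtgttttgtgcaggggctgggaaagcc
Pde4b: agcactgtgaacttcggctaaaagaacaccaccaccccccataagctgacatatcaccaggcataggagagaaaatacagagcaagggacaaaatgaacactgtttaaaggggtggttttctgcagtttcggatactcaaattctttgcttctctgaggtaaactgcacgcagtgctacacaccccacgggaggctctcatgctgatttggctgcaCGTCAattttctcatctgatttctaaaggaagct
Pde8b: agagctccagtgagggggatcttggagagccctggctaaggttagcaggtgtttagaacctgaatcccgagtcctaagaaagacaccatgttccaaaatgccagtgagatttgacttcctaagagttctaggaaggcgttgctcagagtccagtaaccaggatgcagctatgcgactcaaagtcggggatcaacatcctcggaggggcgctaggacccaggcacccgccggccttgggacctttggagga

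Only the Pde4b sequence among those 3 holds the core, which begins 34 bases before the start. The promoter table matched 7 of the 9 members, with 20 start sites in all. The core was present in 3 of the 20 windows (15.0%), 1 each of Pde4a, Pde4b and Pde8a, against 17.8% of the 32851 windows of all genes. None of the 20 held the full element, which was in 1.55% of all windows. A match is a description of the letters and not a bound site.

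Pde2a was higher in striatum by 0.73 ± 0.11 (adjusted p = 1.77e-06) in WT vehicle, by 1.00 ± 0.11 in WT inhibitor arrays, and by 0.78 ± 0.12 and 0.62 ± 0.12 in KO mice on vehicle and inhibitor. Its 3 probe sets all passed in WT vehicle, with differences from 0.53 to 0.85. Pde8a was higher by 0.36 ± 0.13 (adjusted p = 0.0253) in WT vehicle and by 0.42 to 0.54 in the other groups. Its second probe set gave 0.21 ± 0.15 in WT vehicle and did not pass. The Pde8a call in WT vehicle was lost without any of striatum WT vehicle 4 or 5 or hippocampus WT vehicle 1 or 5 (differences of 0.27 to 0.35, adjusted p = 0.0555 to 0.114). In KO inhibitor arrays it was lost without striatum 35 (0.39) or hippocampus 36 (0.34), and in KO vehicle without the arrays on the other side of the score (0.40 ± 0.16, adjusted p = 0.0687). The Gapdh difference (3′ minus 5′ control probe sets) gauges RNA quality. Without the array highest by it in each group, the WT vehicle call was lost (0.37, adjusted p = 0.0588). So was the KO inhibitor call (0.40, adjusted p = 0.0973). The WT vehicle call was also lost with this difference as covariate (0.36, adjusted p = 0.052). It was lost too with probe sets averaged (0.28, adjusted p = 0.0994).

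Pde8a followed oligodendrocyte genes from array to array. Over the 20 striatal arrays its signal had r = 0.86 and rho = 0.871 with the mean of 9 measured oligodendrocyte markers of 10 listed (permutation p = 1e-05 for both, the smallest that 100000 resamples can give; adjusted p = 0.0006 and 0.0018 over 180 relations of the 9 members with 10 array measures in 2 regions). Over the 22 hippocampal arrays r was 0.835 (permutation p = 1e-05, adjusted p = 0.0006) and rho 0.677 (permutation p = 0.00081, adjusted p = 0.027). Without the 2 arrays farthest from the median of the markers, r was 0.844 and 0.708. For this and all later relations the arrays of a region were permuted together with no term for group, so group differences enter them. The 2 genes most like Pde8a, by Pearson's r over 42 arrays after the mean of each region was taken off, were Aspa (r = 0.929), which encodes the aspartoacylase of oligodendrocytes, and Litaf (r = 0.908). The marker mean itself lay between 10.6 and 11.2 on striatal and between 10.15 and 10.84 on hippocampal arrays, and its part in the region difference of Pde8a was not tested.

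Pde4a and Pde4d were lower in striatum. Pde4a lay at 8.29, 8.27, 7.67, 8.01 and 8.13 in WT vehicle striatum and at 8.43, 8.43, 8.39, 8.71, 8.40 and 8.38 in WT vehicle hippocampus, without overlap, a difference of -0.38 ± 0.09 (adjusted p = 0.00126). In the other groups it was between -0.31 and -0.27 and passed. Single arrays decided some of these calls. The call in KO vehicle was lost without hippocampus 25 or 29 or without striatum 26, 28 or 29 (-0.27 to -0.23, adjusted p = 0.0534 to 0.113). In KO inhibitor arrays it was lost without hippocampus 34 or 39 or without striatum 35 or 37 (-0.29 to -0.23, adjusted p = 0.0503 to 0.142). In WT inhibitor arrays it was lost without striatum 14 (-0.22, adjusted p = 0.0602) and without all arrays on the other side of the score (-0.14 ± 0.12, adjusted p = 0.426). Without the array highest by the Gapdh difference in each group, the KO vehicle call was lost (-0.25, adjusted p = 0.098). So was the KO inhibitor call (-0.25, adjusted p = 0.155).

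Pde4d differed by -0.42 ± 0.13 (adjusted p = 0.00822) in WT vehicle and by -0.33 ± 0.12 (adjusted p = 0.0301) in WT inhibitor arrays. In KO vehicle (-0.18 ± 0.13) and KO inhibitor arrays (-0.09 ± 0.14) it did not pass. Whether the WT vehicle and KO vehicle differences themselves differ was tested, with a change of 0.25 ± 0.18 (95% interval -0.13 to 0.62, adjusted p = 0.96) that did not pass. The WT inhibitor call was lost without hippocampus 12 or 13 or striatum 10, 11 or 12 (-0.32 to -0.25, adjusted p = 0.0544 to 0.116). The WT vehicle call was lost without the array highest by the Gapdh difference in each group (-0.33, adjusted p = 0.0901). The second Pde4d probe set was lower in striatum in all 4 groups. It differed by -1.50 ± 0.35 (adjusted p = 0.000781 over all probe sets) in WT vehicle, by -1.85 ± 0.33 (adjusted p = 1.82e-05) in WT inhibitor, by -1.07 ± 0.36 (adjusted p = 0.0267) in KO vehicle and by -1.16 ± 0.38 (adjusted p = 0.0248) in KO inhibitor arrays, so the 2 sets gave different calls in the KO groups. Without the arrays on the other side of the score, the first set differed by -0.51 ± 0.13 (adjusted p = 0.00252) in WT inhibitor arrays.

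Pde7a and Pde9a were the members without a WT vehicle call. The Pde7a difference was -0.20 ± 0.08 (adjusted p = 0.0602) in WT vehicle, where the arrays of the regions did not overlap, and -0.32 ± 0.08 (adjusted p = 0.00138) in WT inhibitor arrays. The other 6 of its 7 probe sets passed as lower in WT vehicle striatum, with differences from -0.52 to -0.22, and the gene's own set passed without striatum 2 (-0.22, adjusted p = 0.0474). The gene also passed with the probe sets averaged (-0.34, adjusted p = 0.0016), in a fit of the compared groups alone (adjusted p = 0.0185), with genes of a mean under 6 left out (adjusted p = 0.0449) and without the arrays on the other side of the score (adjusted p = 0.0459). In KO inhibitor arrays Pde7a differed by -0.22 ± 0.09 and passed without striatum 34 (-0.28, adjusted p = 0.0294). Pde9a, with 1 probe set, differed by 0.19 ± 0.10 (adjusted p = 0.15) in WT vehicle and by 0.39 ± 0.10 (adjusted p = 0.0013) in WT inhibitor arrays. Without hippocampus WT vehicle 1 its WT vehicle difference was 0.26 and passed (adjusted p = 0.0437).

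**Figure D2:**
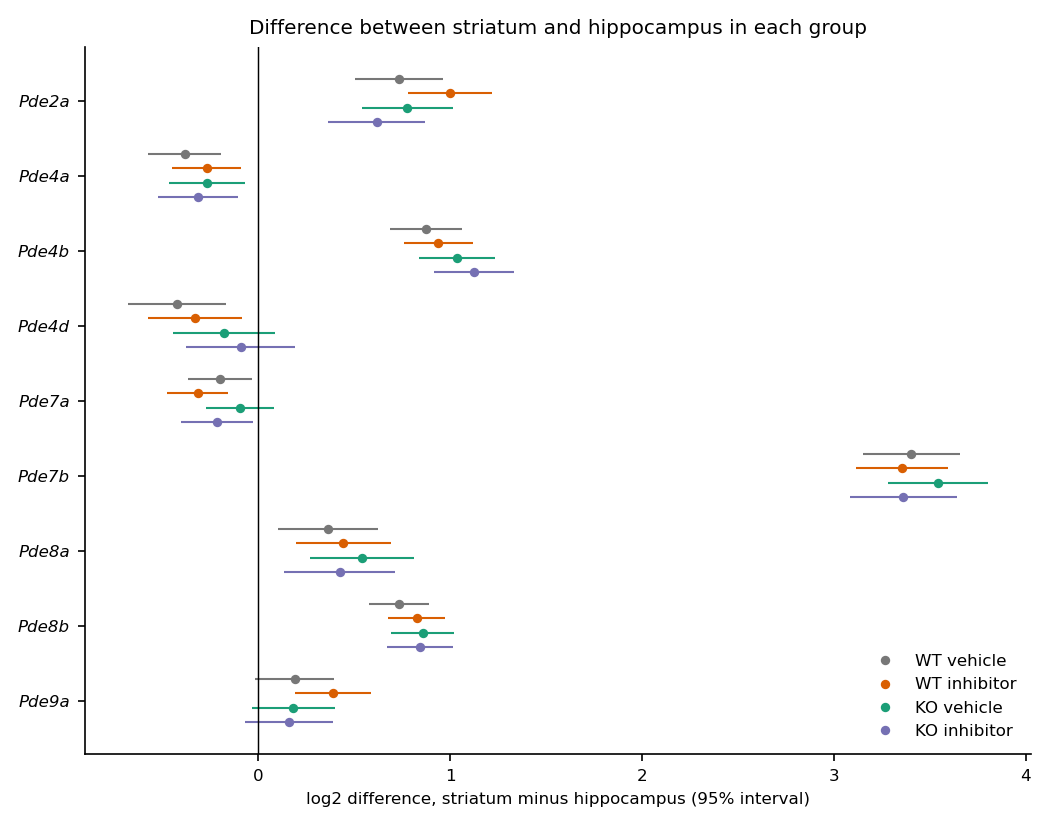
Log2 difference between striatum and hippocampus (horizontal axis) for each gene (vertical axis) in the 4 groups; points are limma estimates and bars their 95% intervals. Pde7b stands at 3.35 to 3.54 in every group, while the intervals of Pde4d, Pde7a and Pde9a reach 0 in some groups.

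Across the 4 groups the region difference passed for 7 members in WT vehicle, 9 in WT inhibitor (6 higher and 3 lower; background 35.6% of genes, 18.4% higher and 17.2% lower), 6 in KO vehicle (5 higher and 1 lower; background 27.3%, 12.5% and 14.8%) and 6 in KO inhibitor arrays (5 higher and 1 lower; background 26.1%, 10.6% and 15.5%). Without the arrays on the other side of the score the counts were 8 (background 34.4%), 8 (29.1%), 5 (20.1%) and 6 (26.8%) in the same order. For none of the 9 did the region difference itself change past the threshold with the inhibitor in WT (background 0.214% of genes) or with the KO label on vehicle (background 0.0495%). At an unadjusted p under 0.05 the number was 0 for both. The largest such estimates were 0.27 ± 0.16 for Pde2a with the inhibitor (adjusted p = 0.492) and 0.25 for Pde4d with the KO label.

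**Figure D3:**
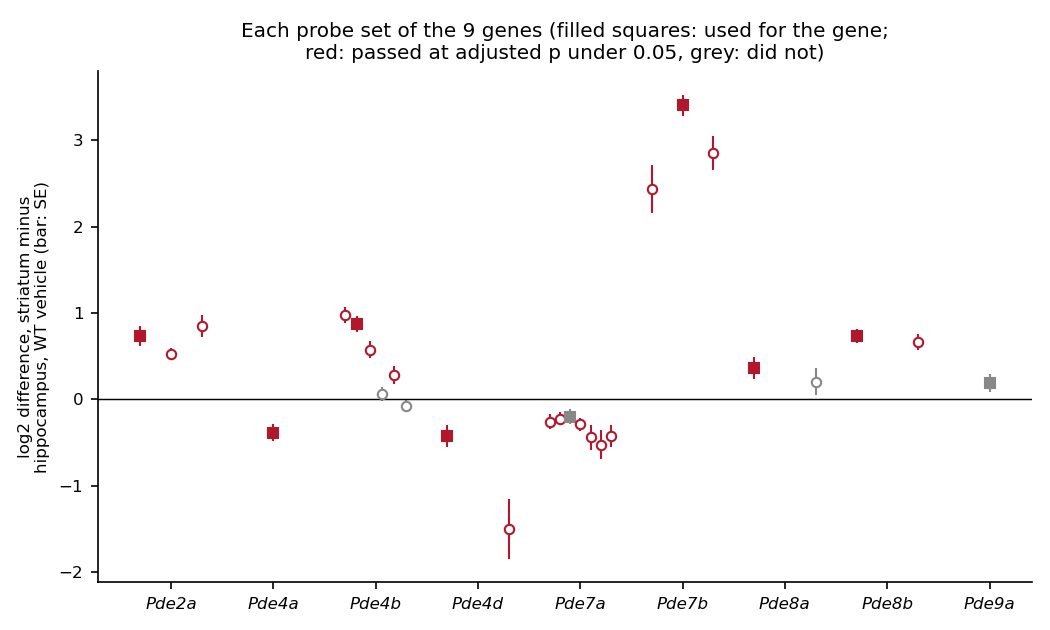
Striatum minus hippocampus in WT vehicle mice for each of the 27 probe sets (vertical axis, log2 difference with its SE), by gene. Filled squares are the sets that stand for the gene and red marks sets with an adjusted p under 0.05. All 3 Pde7b sets lie above 2, and all 7 Pde7a sets lie below 0.

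Within a region, none of the 9 members passed with the inhibitor or with the KO label. In WT striatum 0 of 9 passed with the inhibitor (limma; 2 at an unadjusted p under 0.05, as 1741 of the 18193 genes), where 33 genes did (0.181%). With the KO label on vehicle it was 0 of 9 (0 unadjusted, against 1081 genes), where 25 genes passed (0.137%). No gene passed with the inhibitor in KO striatum (background 0%) or between KO and WT on inhibitor (background 0%); unadjusted, 0 and 1 members had a p under 0.05, against 257 and 2216 genes. The interaction of drug and label passed for no gene (0%), with 1 member and 1346 genes at an unadjusted p under 0.05. In hippocampus 0 of 9 passed in each of the 5 comparisons, where the background was 0% in 4 of them and 0.0055% between KO and WT on inhibitor, and 1 member, Pde8a with the KO label on vehicle, had an unadjusted p under 0.05, as 1205 genes did in that comparison. For 0 of the 9 members did the arrays of both groups separate in any of the 8 comparisons of 2 groups. Over all genes they separated for 1.34%, 1.24%, 0.533% and 2.11% in striatum (inhibitor in WT, label on vehicle, inhibitor in KO, label on inhibitor) and for 0.55%, 0.588%, 0.528% and 2.06% in hippocampus.

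The 95% intervals show how large a change these arrays leave room for. Over the 4 striatal comparisons of 2 groups the members' differences ran from -0.39 to 0.31, and the widest 95% interval reached a 1.605-fold change. In hippocampus they ran from -0.28 to 0.17, and the widest interval reached 1.45-fold. For Pde7b, the member with the widest region difference, the 4 striatal differences lay between -0.03 and 0.04, with intervals inside -0.32 to 0.33. For Pde4b and Pde8b the striatal intervals lay inside -0.18 to 0.32. The widest striatal intervals were those of Pde2a, which ran from -0.68 to 0.59 over the 4 comparisons, and Pde4d, from -0.20 to 0.63. A p that misses the threshold does not show that a gene was unaffected. These ranges say how large a change remained possible for the groups as labelled, with 1 probe set a gene. For the interaction of drug and label, which they leave out, the widest interval reached 1.775-fold in striatum and 1.41-fold in hippocampus. Some striatal estimates of Pde2a and Pde4d were larger in size without the arrays on the other side of the score, as given below.

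**Figure D4:**
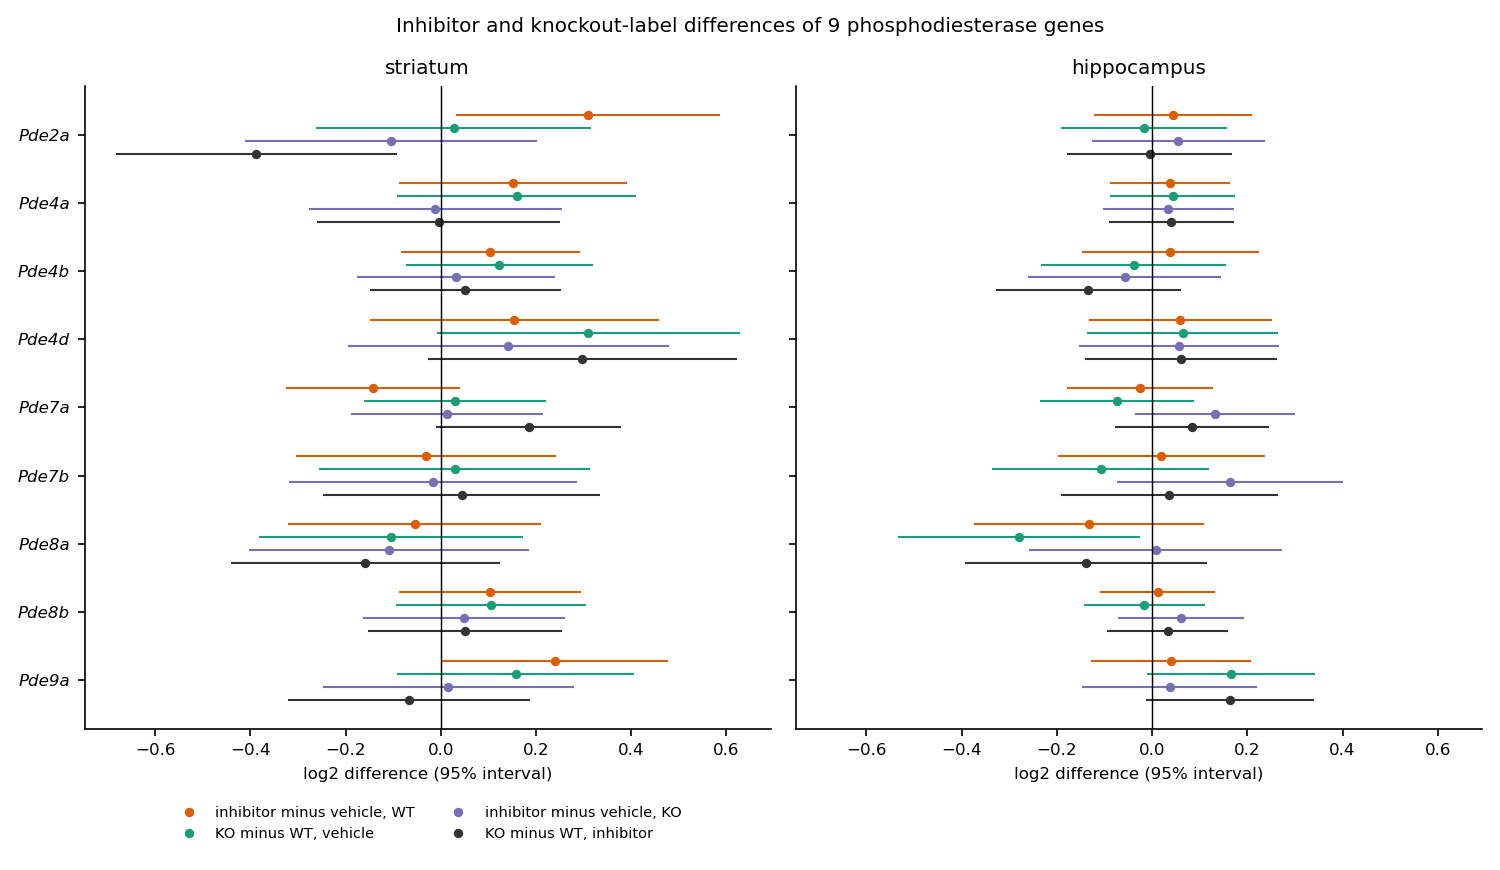
Log2 differences (horizontal axes) of the 9 genes for inhibitor minus vehicle and KO minus WT label in striatum (left) and hippocampus (right), with 95% intervals of single comparisons. Most intervals cross 0; those of Pde2a and Pde9a with the inhibitor in WT striatum, Pde2a by label on inhibitor, and Pde8a by label in hippocampus do not, and none of these passed after adjustment over all genes.

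Pde2a and Pde4d were the members with the largest striatal estimates. Pde2a lay at 12.90, 12.67, 12.78, 13.01 and 12.64 in WT vehicle striatum, and at 13.20, 13.32, 13.34, 13.11, 12.64 and 13.04 in WT inhibitor striatum (arrays 10 to 15). It lay at 13.33, 12.62, 12.74, 12.63 and 12.81 in KO vehicle (25, 26, 28, 29 and 30) and at 12.45, 12.80, 12.91 and 12.73 in KO inhibitor striatum. All but 1 of the WT inhibitor arrays thus lay above every WT vehicle array, and 1 KO vehicle array, 25, lay among them. The inhibitor difference in WT was 0.31 ± 0.13 (adjusted p = 0.447), the KO label difference on inhibitor -0.39 ± 0.14 (adjusted p = 0.26), and the interaction -0.41 ± 0.20 (adjusted p = 0.675). Its other probe sets gave 0.36 ± 0.16 and -0.12 ± 0.07 with the inhibitor in WT, and neither passed. In hippocampus the 4 differences of Pde2a lay between -0.02 and 0.05.

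Without the arrays on the other side of the score, Pde2a passed in 2 comparisons. With the inhibitor in WT striatum (3 against 5 arrays) it was higher by 0.49 ± 0.10 (adjusted p = 0.0133), where 769 genes passed (4.23%), and it was the sole member that did. Between KO and WT on inhibitor (4 against 3 arrays) it was lower, at -0.56 ± 0.11 (adjusted p = 0.00454), and Pde4d was higher by 0.50 ± 0.12 (adjusted p = 0.0216), where 1187 genes passed (6.52%). The interaction for Pde2a was then -0.47 ± 0.14 (adjusted p = 0.186; 0.868% of genes passed). The arrays left out were chosen by the chromosome 17 score, so these values do not describe the groups as labelled. The WT inhibitor arrays kept also differed from those left out in vascular markers, as given below.

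Pde4d lay at 8.92, 8.86, 8.49, 8.40 and 8.78 in WT vehicle, at 8.78, 8.47, 8.69, 8.98, 9.08 and 9.07 in WT inhibitor (arrays 10 to 15), at 8.35, 9.26, 9.03, 9.17 and 9.17 in KO vehicle (25, 26, 28, 29 and 30) and at 9.25, 8.99, 9.17 and 9.16 in KO inhibitor striatum. The KO arrays other than 25 lay above all WT vehicle arrays. As labelled, the difference was 0.31 ± 0.15 (adjusted p = 0.858) on vehicle and 0.30 ± 0.16 (adjusted p = 0.47) on inhibitor. Without the arrays on the other side of the score the vehicle difference was 0.47 ± 0.11 (adjusted p = 0.0524; 0.797% of genes passed). Set by the score and not by the labels, the 11 striatal arrays above 0.5 lay between 8.98 and 9.26 and the 9 below it between 8.35 and 8.92, without overlap. In striatum this held for 1 member, Pde4d, which lies on chromosome 13 and is no part of the score, and for 0.269% of all genes. In hippocampus 0 of 9 members separated in this way, against 0.0824% of all genes, and Pde4d lay between 8.96 and 9.37 on the 10 arrays above 0.5 and between 8.91 and 9.58 on the 12 below. The striatal separation was seen with the probe set that stands for Pde4d and not with its second set. That set overlapped in striatum, at 3.88 to 6.46 above 0.5 and at 3.98 to 6.49 below.

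**Figure D5:**
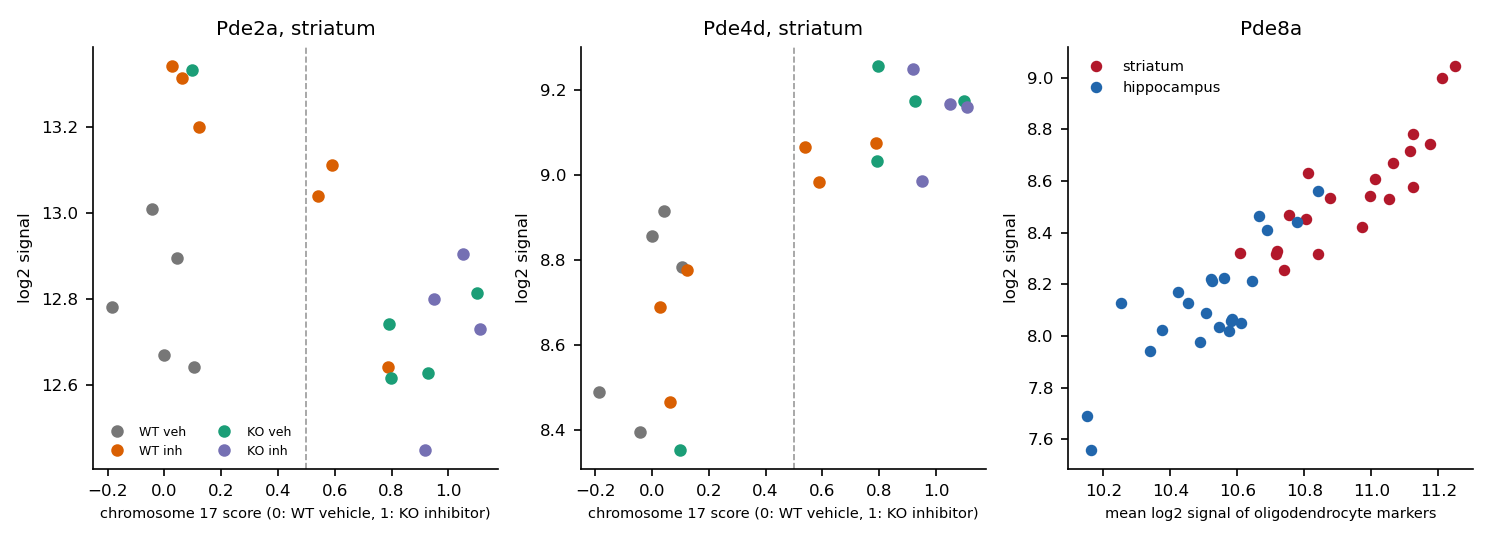
Left and middle: log2 signal of Pde2a and Pde4d (vertical axes) against the chromosome 17 score (horizontal axes) on the 20 striatal arrays, coloured by labelled group, with the dashed line at 0.5. Right: Pde8a against the mean log2 signal of oligodendrocyte markers on all 42 arrays. Pde4d, by the probe set that stands for it, lies at 8.98 or above right of the line and at 8.92 or below left of it. Its second set, not drawn, overlaps.

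Marker genes of other cell types moved with some of these values, and their part in them was not tested. The mean of 10 vascular markers (10 of 10 measured) was 7.82 ± 0.10 (SD, n = 5) in WT vehicle and 8.13 ± 0.24 (n = 6) in WT inhibitor striatum, and ran from 7.66 to 7.92 and from 7.84 to 8.39. Pde2a followed it over the 20 striatal arrays with r = 0.813 (permutation p = 6e-05, adjusted p = 0.0027) and rho = 0.695 (permutation p = 0.0011, adjusted p = 0.03), and with r = 0.704 without the 2 farthest arrays. The mean of glutamatergic markers of cortex and hippocampus (9 of 10 measured) ran from 6.98 to 8.77 in WT vehicle and from 6.73 to 8.24 in WT inhibitor striatum, against 9.84 to 10.1 in WT vehicle hippocampus. In KO striatum it ran from 8.15 to 8.58 on vehicle and from 6.97 to 9.43 on inhibitor. Array 34 held the 9.43 and the lowest projection neuron mean in striatum, 11.38. Pde7a followed the glutamatergic mean in striatum with r = 0.716 (permutation p = 0.00042, adjusted p = 0.015) and rho = 0.739 (permutation p = 0.00029, adjusted p = 0.017), and with r = 0.793 without the 2 farthest arrays. Pde4d followed the mean of 8 interneuron markers in hippocampus with r = 0.83 (permutation p = 1e-05, adjusted p = 0.0006) and rho = 0.789 (permutation p = 2e-05, adjusted p = 0.0018), and with r = 0.72 without the 2 farthest arrays. In striatum Pde4d followed these markers with r = 0.655 (permutation p = 0.0016, adjusted p = 0.034) and rho = 0.6 (permutation p = 0.0055, adjusted p = 0.071), and with r = 0.518 without the 2 farthest arrays. These markers include Gad1 and Gad2, which averaged 12.68 and 11.67 in striatum against 11.92 and 10.01 in hippocampus. In striatum their mean may therefore not follow interneurons alone. Of the 180 relations, 11 passed by Pearson's r. Those not named elsewhere include Pde2a with projection neuron markers in striatum (r = 0.659, adjusted permutation p = 0.032). There Pde7a followed interneuron markers (r = 0.646, adjusted permutation p = 0.034) and ran against projection neuron markers (r = -0.633, adjusted permutation p = 0.034). In hippocampus Pde2a followed interneuron markers (r = 0.713, adjusted permutation p = 0.022), with r = 0.406 without the 2 farthest arrays.

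The cGMP enzyme Pde9a, whose gene shares chromosome 17 with Pde10a, lay at 6.87, 7.26, 6.87, 7.21 and 7.155 in WT vehicle striatum and at 7.54, 7.43, 7.47, 7.14, 7.20 and 7.11 in WT inhibitor striatum (arrays 10 to 15). The first 3 inhibitor arrays lay above every vehicle array and the other 3 among them. The difference was 0.24 ± 0.11 (adjusted p = 0.521). It was 0.40 ± 0.13 (adjusted p = 0.112) without the arrays on the other side of the score, 13, 14 and 15 among them. Pde9a followed the vascular marker mean with r = 0.656 (permutation p = 0.0019, adjusted p = 0.034) and rho = 0.605 (permutation p = 0.006, adjusted p = 0.072) over the 20 striatal arrays, and with r = 0.582 without the 2 farthest. In hippocampus Pde9a differed by 0.17 ± 0.08 with the KO label on vehicle (adjusted p = 0.75) and by 0.16 ± 0.08 on inhibitor (adjusted p = 0.353). Pde7a averaged 7.54 ± 0.09 (SD, n = 5) in WT vehicle and 7.40 ± 0.13 (n = 6) in WT inhibitor striatum, a difference of -0.14 ± 0.09 (adjusted p = 0.68).

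The cAMP enzyme Pde8a gave the largest hippocampal estimate. It lay at 8.04, 8.22, 8.46, 8.41, 8.13 and 8.44 in WT vehicle and at 7.98, 7.56, 8.21, 8.06 and 8.21 in KO vehicle hippocampus (25, 26, 28, 29 and 30). Array 26 was the lowest and the others overlapped the WT values. The difference was -0.28 ± 0.12 (adjusted p = 0.725), and -0.12 ± 0.13 (adjusted p = 1) without the arrays on the other side of the score, 25 and 26 among them. The oligodendrocyte marker mean was 10.575 ± 0.18 (SD, n = 6) in the WT vehicle and 10.48 ± 0.19 (n = 5) in the KO vehicle arrays, and array 26 was the lowest of its group at 10.16. Its part in the Pde8a difference was not tested.

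Ordered by mean level, the 4 striatal groups of Pde2a, Pde4b, Pde7b, Pde8a and Pde8b came before the 4 hippocampal groups. For Pde4a and Pde7a they came after them. For Pde7b, Pde4b and Pde8b the arrays of neighbouring groups in that order overlapped at every step other than the one between the regions. For the other 6 members every pair of neighbours overlapped. Pde7b, for example, averaged 11.80 ± 0.21 (SD, n = 5), 11.77 ± 0.22 (n = 6), 11.83 ± 0.18 (n = 5) and 11.81 ± 0.31 (n = 4) in striatum of WT mice on vehicle and inhibitor and of KO mice on vehicle and inhibitor.

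The genes whose signal was most like each member's, over 42 arrays with the mean of each region taken off, are a description of likeness only. Pde2a was nearest to Hrh3 (r = 0.886) and Rap1gap (r = 0.879), Pde4a to Syp (r = 0.831) and Scrt1 (r = 0.775), and Pde4b to Ypel2 (r = 0.818) and Sh2d5 (r = 0.783). Pde4d was nearest to Rims4 (r = 0.874) and Dusp1 (r = 0.847), Pde7a to Gga3 (r = 0.791) and Rnf24 (r = 0.786), and Pde7b to Ppp1r9a (r = 0.722) and Ccnl1 (r = 0.712). Pde8b was nearest to Znrf1 (r = 0.841) and Zik1 (r = 0.791), and Pde9a to Prdm10 (r = 0.677) and Polrmt (r = 0.654). Among the members themselves the highest values were 0.70 between Pde7b and Pde8b and 0.673 between Pde4b and Pde8b. All these arrays share their normalisation and tissue pieces.

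Other genes of cyclic nucleotide turnover were listed by role, and 62 of 71 were measured. In WT vehicle 20 of the 62 were higher in striatum and 19 lower, where 15.9% and 17.9% of all genes were: 6 and 3 of 15 other phosphodiesterases, 4 and 6 of 16 cyclases, 5 and 6 of 17 kinases, exchange factors and channels, and 5 and 4 of 14 anchoring proteins. The 5 with the smallest p were Pde1b (2.94 ± 0.10), a calmodulin-dependent phosphodiesterase, Adcy5 (3.00 ± 0.10), the main striatal adenylyl cyclase, Pde10a (3.32 ± 0.19), Prkar2b (1.98 ± 0.12), a regulatory subunit of protein kinase A, and Akap9 (1.67 ± 0.10), which anchors that kinase. In the 10 comparisons within a region 1 of the 62 passed in 1 comparison and none in the other 9. This was Pde1c, a calmodulin-dependent phosphodiesterase, higher by 0.95 ± 0.16 (1.94-fold, adjusted p = 0.0202) with the inhibitor in WT striatum. Its region difference also rose with the inhibitor, by 1.196 ± 0.227 (adjusted p = 0.0107). The median difference of the 9 members in that striatal comparison was 0.10, beside -0.00045 over all genes.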

How the data were processed

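The authors deposited 1 table of log2 signals for 45101 probe sets on 42 Affymetrix arrays, computed by RMA (no version stated) per the submitters' processing notes. Array medians lay between 6.05 and 6.12. The most alike arrays (r = 0.997) differed with an SD of 0.167, so each counted as a sample. Of the probe sets, 34945 named 1 gene, 932 several and 9160 none, and 64 were controls; 34741 matched RefSeq. Groups came from sample titles. Differences were fitted with limma 3.58.1 in R 4.3.3 (lmFit, eBayes, two-sided, Benjamini-Hochberg over 18193 genes, threshold 0.05), with the 4 groups of a region in 1 fit and all 42 arrays for contrasts between regions, 16 comparisons in all. The fits were tested on simulated data. Members and gene lists were chosen with earlier results of these data known. All 9 members are named, plus up to 5 passing genes of the cyclic nucleotide lists per comparison by smallest p (Pde10a as the target) and the 2 genes most like each member. Title numbers recur between regions; over 20 such pairs the correlation of deviations ran from -0.382 to 0.305, so they were not taken as pairing. Alternatives changed probe set choice, filter, weights, arrays, covariates and blocks.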

Additional observations from a re-analysis of the deposited data

Results flagged for a closer look

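In 72 groups of member values, 4 held an array that stood far from the rest of its group, where chance gives about 1 in 20 groups. Striatum KO vehicle 25 did so for both Pde2a, at 13.33 against 12.62 to 12.81 (gap over range 0.724), and Pde4d, at 8.35 against 9.03 to 9.26 (0.753). Its chromosome 17 score was 0.0982, on the WT side. Pde4a stood apart on hippocampus KO vehicle 29, at 8.66 against 8.43 to 8.48 (0.790), and on hippocampus WT vehicle 4, at 8.71 against 8.38 to 8.43 (0.833). The cause of each was not tested.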

How the results depend on the processing

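Over other settings tried for the 9 members and 16 comparisons, 1654 values kept their side of the threshold, 20 lost a call, 14 gained one and 4 called values reversed. With single arrays left out, 1884 kept their side, 21 lost and 3 gained a call, and 0 called values reversed. Of the values that kept their side, 105 and 150 changed sign, all of them below the threshold before and after, so they carry no direction. With the mean of glutamatergic markers as covariate, which itself differs between the regions, fewer members were called. The counts were 4 in WT vehicle, 4 in WT inhibitor, 4 in KO vehicle and 3 in KO inhibitor arrays. In WT vehicle the calls of Pde4a (-0.04), Pde4d (-0.13) and Pde8a (0.18) were lost. In WT inhibitor Pde4a (0.23), Pde4d (0.0926) and Pde7a (0.0514), and in KO vehicle Pde4a (0.0333), reversed without passing. Without the arrays on the other side of the chromosome 17 score 1 member passed with the inhibitor in WT striatum and 2 between KO and WT on inhibitor. With single arrays left out, region counts ran from 6 to 8, 8 to 9, 5 to 6 and 4 to 7 for WT on vehicle and on inhibitor and KO on vehicle and on inhibitor, and from 0 to 0 in every other comparison. The replicate block by title number also left out the unpaired hippocampus arrays WT vehicle 6 and KO inhibitor 36 (40 arrays, 20 pairs). Its 1 changed call was Pde8a between regions in KO inhibitor arrays (0.34 ± 0.13, adjusted p = 0.0659), which was also lost without array 36 alone and no block (0.34, adjusted p = 0.0852); 6 of 20 pairs correlated above 0.1 and 4 arrays were most like their own number.

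Counts over all genes moved more. Across alternatives they ran from 10 to 769 with the inhibitor in WT striatum (33 as reported), 0 to 145 with the KO label on vehicle (25), 0 to 1187 for the label on inhibitor (0) and 0 to 158 for the interaction (0); in hippocampus 0 to 154, 0 to 15 and 0 to 658 for the inhibitor in WT, the label on vehicle and the label on inhibitor (0, 0 and 1). Between regions they ran from 1675 to 10983 (6160), 1695 to 10865 (6477), 2323 to 7957 (4967) and 2086 to 7559 (4745), and for the change of the region difference from 23 to 785 (39) and 0 to 34 (9). Averaging a gene's probe sets gave Pde4d a region call in KO vehicle (-0.62, adjusted p = 0.0273) and KO inhibitor arrays (-0.62, adjusted p = 0.0401).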
